A study of Mus musculus with 4 samples.

Results

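The early growth response genes EGR1, EGR2, EGR3 and EGR4 and the corepressor genes NAB1 and NAB2 were followed by RNA sequencing in Jurkat, a cell line from a human T cell leukaemia. These 6 genes were taken by symbol from 58735 gene rows of 1 count table. They were chosen because of their difference between the 2 groups of libraries, so that difference is given as a description. The calls of the fit for these genes are counted once and support nothing. The groups were 2 libraries of wild-type Jurkat cells and 2 libraries of Jurkat cells labelled MATR3 knockout, made with CRISPR-Cas9, all grown in the same medium with serum and antibiotics, per the labels. No stimulation is named for either group, and neither the number of edited clones nor separate cultures are given, so the spread between libraries may be technical. The only contrast in the design text is knockout or not, and the series title places it in the epigenetic control of CD4 T cells in liver cancer.

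EGR proteins are zinc finger transcription factors that bind GC-rich sites. They are immediate-early genes, switched on within minutes of receptor signalling without new protein synthesis. EGR1 is induced mainly through the ERK kinases, which act on ternary complex factors that sit with serum response factor (SRF) at its promoter, while EGR2 and EGR3 in T cells also depend on calcineurin and NFAT. NAB1 and NAB2 bind EGR proteins and mostly repress their activity, in part through the NuRD chromatin remodelling complex. NAB2 is itself induced by EGR factors, which makes it a feedback inhibitor. In T cells EGR2 and EGR3 are known for restraint of activation and for anergy, and in myeloid precursors EGR factors with NAB2 are known for opposing GFI1 in the choice between macrophage and neutrophil fates.

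Library depth ranged from 15008554 to 17477643 counts. The targeted gene did not check the labels: the tested MATR3 row (ENSG00000015479, chromosome 5, 139293648 to 139331677) had 19 and 9 wild-type reads, against 42 and 61 with the knockout label, and a second MATR3 row shares 38024 bases with it, so that reads there may have been counted for neither. The 14 T cell markers were all detected in every library, with summed levels of 3406 to 3660 CPM (counts per 1000000 counts of the library) for wild-type, against 1440 to 1478 CPM with the knockout label. The 15 myeloid markers summed to 83.2 and 89.9 CPM in the wild-type libraries, with 4 of them at 0 in both. In the others they summed to 5241 and 5122 CPM, of which MPO alone made up 4972 and 4867 CPM. AIF1, which was not called, made up 71.6 and 78.3 CPM of the wild-type sums. Of 12 tested in the fit described below, 11 were called higher (91.7%, against 33.7% of all genes). Of the 12, 9 passed the expression filter only through the libraries labelled knockout. CD14 stayed at 0.387 and then 0.340 CPM, and S100A8 had 0 reads in every library. Of the 5 other cell types listed, natural killer markers summed to 43.3 to 49.4 CPM in wild-type, then 50.8 to 52.4 CPM. Epithelial markers summed to 17.6 to 19.5 CPM and then 129.5 to 130.6 CPM, of which KRT18 went from 3.71 to 86.3 CPM and KRT8 from 8.21 to 36.4 CPM, with EPCAM and KRT19 at 0 in every library. Fibroblast markers (101.7 to 107 CPM, then 45.2 to 47.3) and B cell markers (15.9 to 17.7 CPM, then 9.71 to 10.6) had lower sums. Erythroid markers (26.1 to 26.8 CPM, then 31.7 to 32.8) had a higher sum. These sums came mostly from THY1 (93.3, then 34.5 CPM), CD79A (14.7, then 5.70 CPM) and EPOR (25.3, then 30.2 CPM). EPOR was not called, nor was any other erythroid marker. Of 4 B cell markers tested, 2 were called higher and 2 lower (50% each, against 33.7% and 32.3% of all genes). Of 3 fibroblast markers, 1 was called higher and 1 lower (33.3% each). Both B cell rises (PAX5 and BLNK) and the fibroblast rise (PDGFRB) passed the filter only through the libraries labelled knockout. SPIB, a B cell fall, passed it only through the wild-type libraries, so each of these could be called in 1 direction alone. Mitochondrial genes took 4.92% to 5.31% and then 9.33% to 9.49% of counts. In bulk RNA, fewer cells of a type and less RNA per cell cannot be told apart, and the part of these markers in the results below was not tested.

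EGR1 was low in wild-type and among the most abundant zinc finger transcripts in the libraries labelled knockout. EGR1 (ENSG00000120738, chromosome 5, 138465490 to 138469315, plus strand, genome release not given in the sources used here) had 84 and 68 reads in wild-type replicates 1 and 2, and 6113 and 6035 reads in replicates 1 and 2 labelled knockout. After scaling by TMM, a correction for library composition, these were 4.82 and 4.27 CPM against 417 and 407 CPM. Both libraries labelled knockout stood far above both wild-type libraries, and the replicates within each group lay close together. The ratio of the groups was 90.4, with a 95% exact conditional interval of 77.0 to 107 that covers counting error only, and the log2 fold change was 6.50 (SE 0.106). Of all genes tested, 1.86% had a larger log2 fold change.

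The other EGR genes stayed at few reads. EGR4 (ENSG00000135625, chromosome 2, 73290929 to 73293705, minus strand), a member known mainly from neurons and germ cells, had 11 and 10 wild-type reads, against 34 and 49 with the knockout label. In CPM these were 0.631 and 0.628 against 2.32 and 3.30, so the groups did not overlap. The ratio was 4.47 (95% exact conditional interval 2.74 to 7.60) and the log2 fold change 2.15 (SE 0.432).

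EGR2 (ENSG00000122877, chromosome 10, 62811996 to 62919900, minus strand), a regulator of T cell anergy and of myelination, had 1 and 10 wild-type reads, against 25 and 21 with the knockout label. These were 0.0574 and 0.628 CPM against 1.71 and 1.42 CPM. The groups did not overlap, but the wild-type libraries differed 10.9-fold from each other on these few reads. The ratio was 4.73 (95% exact conditional interval 2.41 to 10.1) and the log2 fold change 2.20 (SE 0.575). It was 1.32 without wild-type replicate 1, where EGR2 lost its call, and 4.57 without wild-type replicate 2.

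EGR3 (ENSG00000179388, chromosome 8, 22687659 to 22693302, minus strand), a close partner of EGR2 in thymocytes and T cells, had 0 and 5 wild-type reads, against 4 and 8 with the knockout label. The groups overlapped, at 0 and 0.314 CPM against 0.273 and 0.539 CPM. EGR3 had too few reads to be tested, and the interval of its ratio of 2.71 ran from 0.890 to 9.83. A difference was not detectable at these counts. A noncoding row on the opposite strand shares 55.9% of the EGR3 span, and the strand setting of the counting is not given. Reads there may thus have been counted for neither row.

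Both corepressor genes were higher in the libraries labelled knockout, by much less than EGR1. NAB2 (ENSG00000166886, chromosome 12, 57088894 to 57095476, plus strand), the EGR-inducible member, had 602 and 569 wild-type reads, against 1189 and 1238 with the knockout label. These were 34.6 and 35.7 CPM against 81.1 and 83.5 CPM, with little spread in either group. The ratio was 2.34 (95% exact conditional interval 2.18 to 2.51) and the log2 fold change 1.23 (SE 0.0903).

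NAB1 (ENSG00000138386, chromosome 2, 190646746 to 190692766, plus strand), the member known for more constant expression, had 145 and 152 wild-type reads, against 253 and 209 with the knockout label. These were 8.32 and 9.55 CPM against 17.3 and 14.1 CPM, and the groups did not overlap. The ratio was 1.76 (95% exact conditional interval 1.52 to 2.04) and the log2 fold change 0.81 (SE 0.176).

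Of the 6 genes, 5 passed the expression filter, and all 5 of those were called higher by edgeR's quasi-likelihood test at an adjusted p of 0.05. The same test called 33.7% of the 15294 genes tested higher, and 66.0% in either direction. Because the genes were chosen on this contrast, nothing is read from that count. EGR2 and EGR4 passed the filter only through the libraries labelled knockout.

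**Figure D1:**
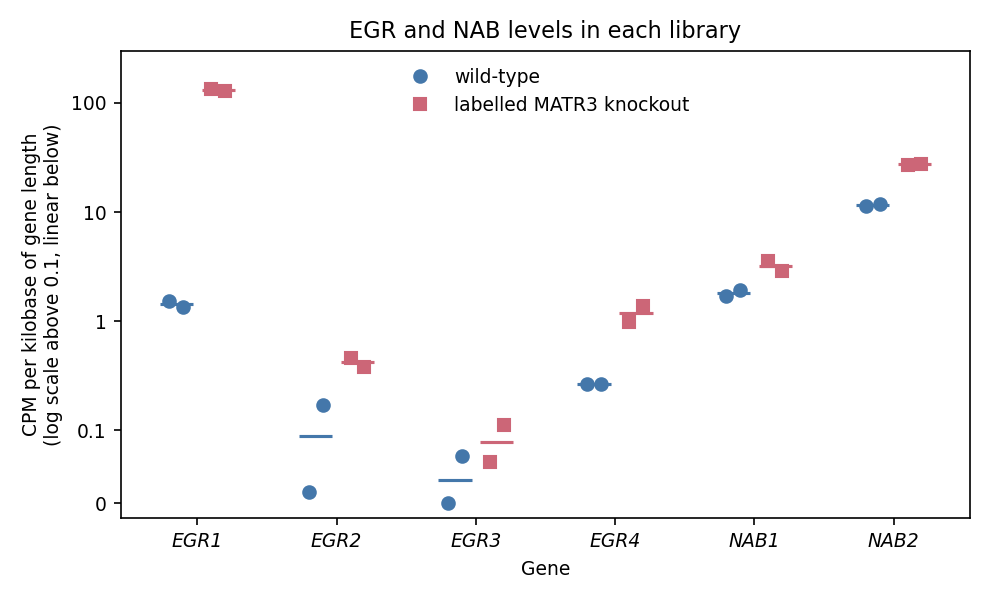
Level of each gene in CPM per kilobase of its deposited gene length (vertical axis, log scale above 0.1 and linear below) in the 2 wild-type libraries (circles) and the 2 libraries labelled MATR3 knockout (squares); short lines are group means. EGR1 goes from 1.45 to 131 CPM per kilobase, while EGR3 overlaps between the groups.

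The order of the genes by level differed between the groups. On the scale of CPM per kilobase of the deposited gene length, NAB2 was the highest in wild-type at 11.7 ± 0.277 (SD, n = 2 here and below), followed by NAB1 at 1.83 ± 0.177 and EGR1 at 1.45 ± 0.124. EGR4 followed at 0.265 ± 0.00100, EGR2 at 0.0929 ± 0.109 and EGR3 at 0.0323 ± 0.0457 CPM per kilobase. The last pair overlapped between libraries and was not separated, while no other neighbours in the order overlapped.

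In the libraries labelled knockout EGR1 led at 131 ± 2.28 CPM per kilobase, ahead of NAB2 at 27.3 ± 0.554 and NAB1 at 3.21 ± 0.458. EGR4 stood at 1.18 ± 0.293, EGR2 at 0.423 ± 0.0555 and EGR3 at 0.0837 ± 0.0388 CPM per kilobase. No neighbours in this order overlapped. EGR1 thus passed from the third place to the first, and NAB2, NAB1 and EGR4 kept their order.

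Summed per length, the EGR genes stood below their corepressors in wild-type and above them in the libraries labelled knockout. The 4 EGR genes summed to 1.82 and 1.86 CPM per kilobase in the wild-type libraries and to 134.4 and 131.6 in those labelled knockout. The NAB genes summed to 13.2 and 13.8 and then to 30.5 and 30.6 CPM per kilobase. The EGR sum was therefore 0.138 and 0.135 of the NAB sum in wild-type, and 4.41 and 4.30 times it in the libraries labelled knockout.

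Within each family 1 gene carried most of the level. EGR1 made up 84.5% and 73.2% of the EGR sum for wild-type, against 98.9% and 98.6% with the knockout label. NAB2 made up 87.1% and 85.9% of the NAB sum, and then 88.4% and 90.6%. The EGR1 level was 0.134 and 0.115 of that of NAB2 in wild-type, but 4.93 and 4.68 times it with the knockout label.

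**Figure D2:**
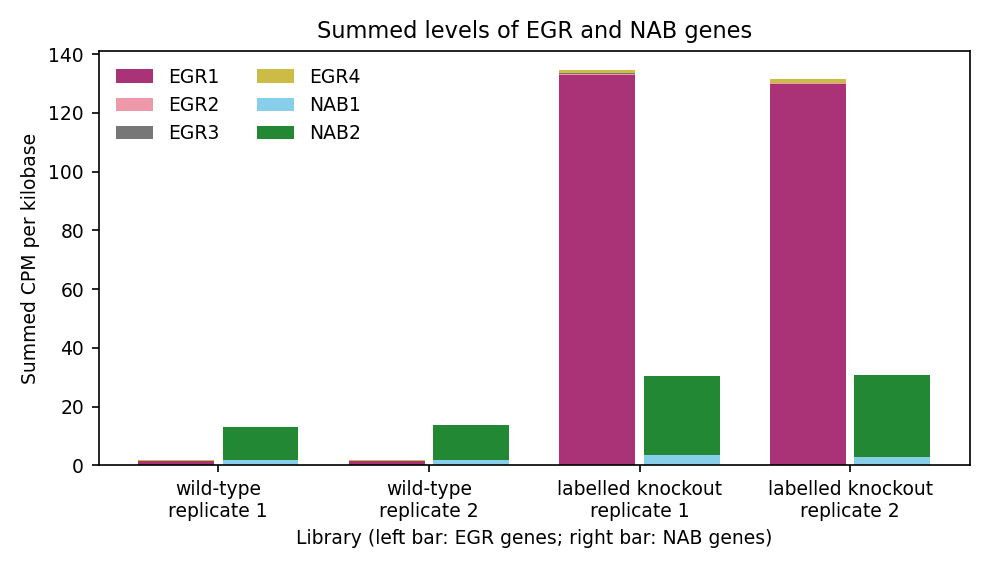
Summed CPM per kilobase (vertical axis, linear from 0) of the 4 EGR genes (left bar) and the 2 NAB genes (right bar) in each of the 4 libraries, stacked by gene. The EGR bar is below the NAB bar in both wild-type libraries and more than 4 times as high in both libraries labelled knockout, where EGR1 makes up nearly all of it.

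Among 630 rows that the deposited table assigns to C2H2 zinc finger factors, EGR1 ranked 201 and 234 by CPM per kilobase in the wild-type libraries and 1 in both libraries labelled knockout. Among all 1553 rows with a transcription factor family it ranked 606 and 665, then 9 in both. Among 19951 protein-coding rows it went from ranks 8786 and 9272 to ranks 241 and 248. NAB2 went from ranks 3795 and 3703 to ranks 1613 and 1571 of the protein-coding rows, and NAB1 from 8565 and 8459 to 7186 and 7770. The ranks of EGR3 overlapped between the groups, at 14388 and 13096, then 13715 and 13063.

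Of 474 C2H2 zinc finger genes tested, 34.6% were called higher and 19.6% lower, against 33.7% and 32.3% of all genes tested, and their median log2 fold change was 0.13 against 0.017 over all.

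**Figure D3:**
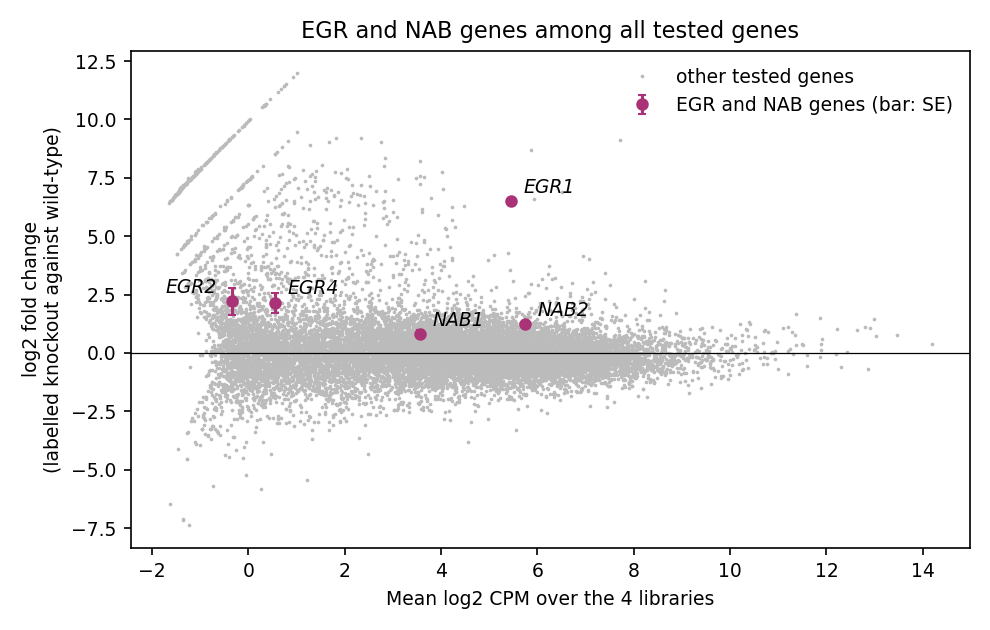
log2 fold change of libraries labelled knockout against wild-type (vertical axis) by mean log2 CPM over the 4 libraries (horizontal axis) for all 15294 genes tested (grey) and the 5 tested EGR and NAB genes (large points, bars are SE). EGR1 at 6.50 stands above most genes of its abundance, and NAB1 at 0.81 and NAB2 at 1.23 lie nearer to the bulk of genes.

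The genes with levels most like each member over the 4 libraries were named by the smallest Euclidean distance in log2 CPM. For EGR1 these were ANPEP (distance 0.971), the surface aminopeptidase CD13 of myeloid cells, then CTSS (2.03), a lysosomal cysteine protease of antigen-presenting cells, and PPP1R27 (2.17). ANPEP went from 6.14 ± 1.14 to 598 ± 5.00 CPM. It was the 1 gene within a distance of 1 from EGR1, whereas 429 genes lay that close to NAB2 and 890 to NAB1. The nearest to NAB2 were ARHGAP9, a GTPase-activating protein, CDH24, a cadherin, and CREB3L2, a transcription factor of the endoplasmic reticulum, at distances of 0.144 to 0.181.

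NAB1 was nearest to PTCD2, NUFIP1 and CD2AP, at distances of 0.144 to 0.182. EGR4 had 82 genes within a distance of 1, with TRGC1, AC019080.1 and ZNF337-AS1 the nearest, and EGR2 had 22, with SAP30L-AS1, TLR6 and INHBC the nearest. At such low levels these distances rest on few reads.

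The genes next to the EGR and NAB loci were called about as often as genes in general. Of the 36 nearest tested genes, 3 on each side of each member, 13 were called higher (36.1%), 12 lower (33.3%) and 11 did not pass, against 33.7% and 32.3% of all genes tested, with a median log2 fold change of 0.007. REEP2, the nearest tested gene before EGR1, fell by 0.94 on the log2 scale (SE 0.0970, adjusted p = 5.35e-14, edgeR quasi-likelihood test). ETF1, a translation release factor and the nearest tested gene after EGR1, stood at 0.065 (SE 0.0762, adjusted p = 0.464). The start of EGR1 lies 808 kilobases from that of the longer MATR3 row, and of the 4 tested genes that start between them, 1 was called higher, 1 lower and 2 did not pass, with log2 fold changes from -0.94 to 0.43.

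The nearest tested genes of the other EGR loci had log2 fold changes from -0.66 to 0.70. ADO and NRBF2 beside EGR2 stood at 0.39 and 0.32, of which ADO passed the test, though not without replicate 1 labelled knockout (adjusted p = 0.0896, edgeR). FBXO41 and ALMS1 beside EGR4 stood at -0.11 and 0.70, of which ALMS1 passed. BIN3 and RHOBTB2 beside EGR3 were both called lower, at -0.49 and -0.66.

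NAB2 and the gene after it overlap. STAT6, the transcription factor of interleukin-4 signalling, lies on the opposite strand, and 69 bases are shared, 1.05% of the NAB2 span. The strand setting of the counting is not given in the sources used here, so reads in those bases cannot be told apart. STAT6 levels were 167 ± 11.5 CPM for wild-type, against 163 ± 5.04 CPM with the knockout label (log2 fold change -0.042, adjusted p = 0.630). NEMP1, the nearest tested gene before NAB2, rose by 0.97 on the log2 scale (SE 0.0898).

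Around NAB1, 4 of 6 neighbours were called higher and 1 lower, with a median of 0.70 beside the 0.81 of NAB1 itself. These were 66.7% and 16.7%, against 33.7% and 32.3% of all genes tested. The share called higher was the largest among the loci, where it started at 16.7%, and a change of the region was not tested. AC108047.1, the nearest tested gene before NAB1, stood at -0.87, which did not pass. Noncoding rows on the opposite strand overlap NAB1 and EGR3, and these held 0 to 5 reads in each library. AC055854.1 shares 55.9% of the EGR3 span, and AC006460.1 and AC006460.2 share 34.4% and 6.73% of the NAB1 span. With the strand setting not given, reads in the shared bases may have been counted for neither row, which was not tested.

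**Figure D4:**
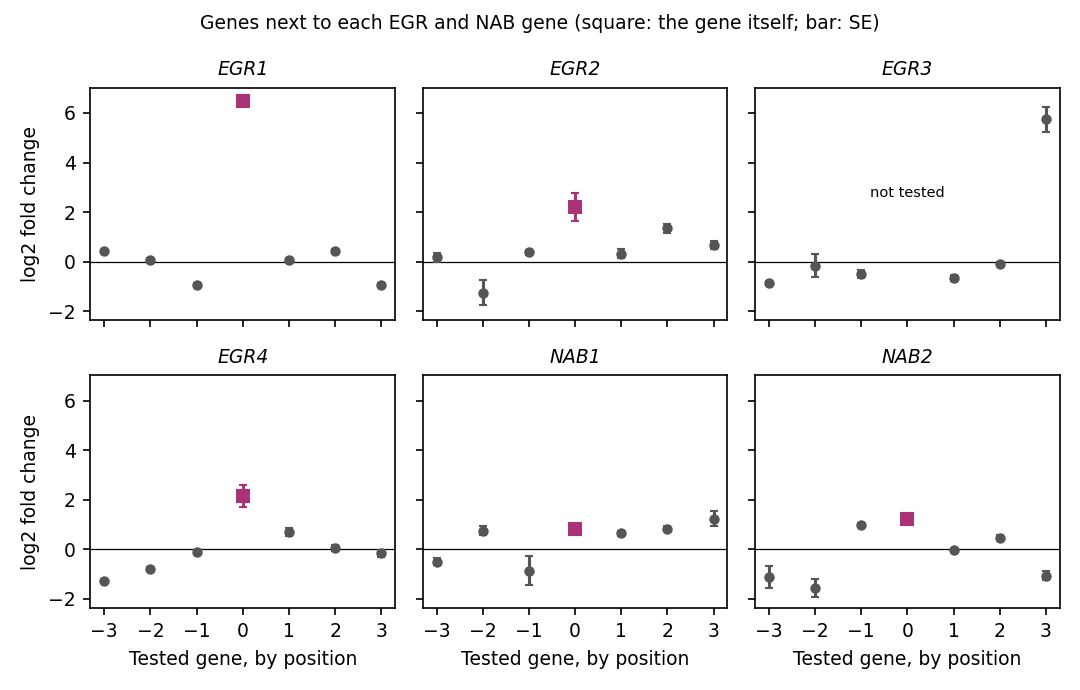
log2 fold change of libraries labelled knockout against wild-type (vertical axis) for the 3 tested genes before and after each EGR and NAB gene, in order of start position (horizontal axis), with the gene itself at 0 (square) and SE as bars. The genes beside EGR1 lie between -0.94 and 0.43, and those beside NAB1 are mostly higher.

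Other immediate-early genes moved in both directions. Of 36 listed, 31 were tested, and 17 rose, 8 fell and 6 did not pass (54.8% and 25.8%, against 33.7% and 32.3% of all genes tested). Their median log2 fold change was 0.40, and 1 of them passed the filter only through the libraries labelled knockout. TRIB1, a pseudokinase that directs the breakdown of C/EBP-alpha, rose from 0.884 ± 0.438 to 162 ± 6.43 CPM (log2 fold change 7.53, SE 0.149). FOSL1, an AP-1 subunit, rose from 0.585 ± 0.472 to 23.3 ± 0.000874 CPM, and MCL1, an anti-apoptotic gene, by 3.07 on the log2 scale. FOS itself, a classical immediate-early partner of EGR1, went from 1.11 ± 0.142 to 6.21 ± 0.963 CPM, a log2 fold change of 2.48, and remained well below EGR1 in reads.

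Among the falls, KLF2, a quiescence factor of T cells, fell from 276 ± 18.2 to 116.5 ± 7.73 CPM. IER3 and JUN fell by 0.69 and 0.63 on the log2 scale, and IER3 lost its call without wild-type replicate 1 (log2 fold change -0.41, adjusted p = 0.0612, edgeR). In the same libraries the summed myeloid markers were higher and the summed T cell markers lower, as given above.

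The genes listed as ERK feedback inhibitors, some of whose transcripts are used as a readout of ERK activity, were called higher about as often as all genes. Of 14 tested, 5 rose, 2 fell and 7 did not pass (35.7% and 14.3%, against 33.7% and 32.3% of all genes tested), with a median of 0.16. DUSP6, the phosphatase that acts on ERK in the cytoplasm, rose from 4.55 ± 1.11 to 60.9 ± 5.49 CPM (log2 fold change 3.73, SE 0.147). SPRY2 and SPRY1, inhibitors of receptor signalling to RAS, rose by 1.96 and 1.56. DUSP8 and DUSP1, phosphatases acting mainly on JNK and p38, fell by 1.40 and 1.20 on the log2 scale.

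In the RAS to ERK chain upstream of EGR1, 14 of 24 genes rose and 9 fell, with a median of 0.33. The 58.3% higher and 37.5% lower stand beside 33.7% and 32.3% of all genes. RASGRP3, 1 of the falls, passed the filter only through the wild-type libraries, so it could be called in 1 direction alone. The list also holds the RAS inhibitors NF1, RASA1, RASA2 and RASAL3, which all rose. The exchange factors SOS2 and SOS1 rose by 1.83 and 1.46, as did RASA2, a GTPase-activating protein, by 1.74. HRAS fell from 123 ± 9.91 to 36.6 ± 2.24 CPM, and RASGRP1, the exchange factor of T cell receptor signalling, and the kinase MAP2K1 fell by 0.68 and 0.53 on the log2 scale.

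Of 11 genes around SRF, the factor at the EGR1 promoter, 6 rose and 4 fell (54.5% and 36.4%, beside 33.7% and 32.3% of all genes), with a median of 0.56. SRF itself fell from 231 ± 6.25 to 160 ± 3.37 CPM (log2 fold change -0.53, SE 0.0712). ELK3, a ternary complex factor, rose by 0.99, and so did the CREB relative ATF1 by 1.01. RPS6KA5 and RPS6KA4, kinases that phosphorylate histone H3 at immediate-early genes, moved apart, at 1.77 and -0.97. FHL2, a cofactor that binds SRF, fell by 1.96 on the log2 scale.

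Of 18 tested calcineurin and NFAT genes, 10 rose and 6 fell (55.6% and 33.3%, beside 33.7% and 32.3% of all genes), with a median of 0.37. PPP3CA, a calcineurin catalytic subunit, rose from 10.8 ± 2.08 to 39.7 ± 0.329 CPM, while PPP3CC, another, fell by 0.80. RCAN1, a calcineurin inhibitor and NFAT target, fell from 67.5 ± 0.137 to 25.5 ± 2.75 CPM. ORAI1, the calcium channel of the plasma membrane, fell by 0.83, and NFAT5 and ITPR1 rose by 1.33 and 0.90 on the log2 scale.

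Of 32 genes reported as EGR targets in lymphocytes, 27 were tested, and 9 rose, 13 fell and 5 did not pass, with a median of -0.23. The 33.3% higher and 48.1% lower compare with 33.7% and 32.3% of all genes. CD44 and CD69 passed the filter only through the libraries labelled knockout, so they could be called in 1 direction alone. CD44, an adhesion receptor that binds hyaluronan, went up from 0.144 ± 0.203 to 29.2 ± 0.434 CPM. TNF and ID2, an inhibitor of E proteins, rose by 1.64 and 1.17. BATF, an AP-1 family factor, and IL2RB, an interleukin-2 receptor chain, fell by 1.36 and 1.23 on the log2 scale.

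Of 26 targets reported outside lymphocytes, 23 were tested, and 12 rose, 4 fell and 7 did not pass (52.2% and 17.4%, beside 33.7% and 32.3% of all genes), with a median of 0.94. Of these, 1 passed the filter only through the libraries labelled knockout. CCND1, the cyclin D1 gene, rose from 3.88 ± 0.289 to 24.3 ± 3.83 CPM, GADD45A, a stress and DNA damage gene, by 2.52, and TXNIP, the thioredoxin inhibitor, from 115.7 ± 0.406 to 567 ± 1.91 CPM. PDGFA, a growth factor gene, fell by 1.10 on the log2 scale. The difference between the target lists was not tested, and ATF3 and GADD45B are also on the immediate-early list.

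NuRD subunits, through which NAB proteins repress, were lower more often than higher. Of 16 tested, 4 rose, 10 fell and 2 did not pass (25.0% and 62.5%, against 33.7% and 32.3% of all genes), with a median of -0.40. HDAC1, a catalytic subunit, fell from 532 ± 2.00 to 224 ± 5.02 CPM, and CDK2AP1 and MBD3 fell by 1.29 and 0.73. HDAC2, its paralogue, rose from 67.4 ± 8.99 to 122 ± 1.49 CPM, ZMYND8 rose by 1.70 and GATAD2B by 0.87 on the log2 scale. CHD4, the subunit reported to bind NAB2 and chosen here after its values were seen, stood at 28.5 ± 1.18 and 27.2 ± 2.00 CPM (log2 fold change -0.069, adjusted p = 0.644).

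Regulators around EGR and GFI1 in myeloid precursors were mostly higher. Of 16 listed, 15 were tested, and 11 rose, 2 fell and 2 did not pass, with a median of 2.29. The 73.3% higher and 13.3% lower stand beside 33.7% and 32.3% of all genes. Of those tested, 4 passed the filter only through the libraries labelled knockout. MAF, 1 of the 2 falls, passed it only through the wild-type libraries, so each of these could be called in 1 direction alone. This list holds myeloid markers, so it is not separate from them. ELANE and CSF3R, granulocyte genes, had 0 wild-type reads and were at least 319.6-fold and 245-fold higher, with 3 counts over both wild-type libraries as the floor. MPO, a granule enzyme, rose from 8.93 ± 0.610 to 4920 ± 74.8 CPM. GFI1, the factor that EGR and NAB2 oppose and a gene named here after its values were seen, rose from 40.1 ± 0.463 to 172.8 ± 0.966 CPM (log2 fold change 2.11, SE 0.0808).

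Factors that bind similar GC-rich sites were higher for 9 and lower for 2 of 14 (64.3% and 14.3%, beside 33.7% and 32.3% of all genes), with a median of 0.34. ZBTB7B, the CD4 lineage factor, rose from 15.6 ± 1.46 to 130.4 ± 1.99 CPM. WT1, a zinc finger factor that recognises EGR-like sites, rose from 6.21 ± 0.989 to 32.4 ± 1.31 CPM, and SP3 by 1.00 on the log2 scale. MAZ and KLF13 fell by 0.51 and 0.26, and KLF13 lost its call without either replicate labelled knockout (adjusted p = 0.0570 and 0.120, edgeR).

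**Figure D5:**
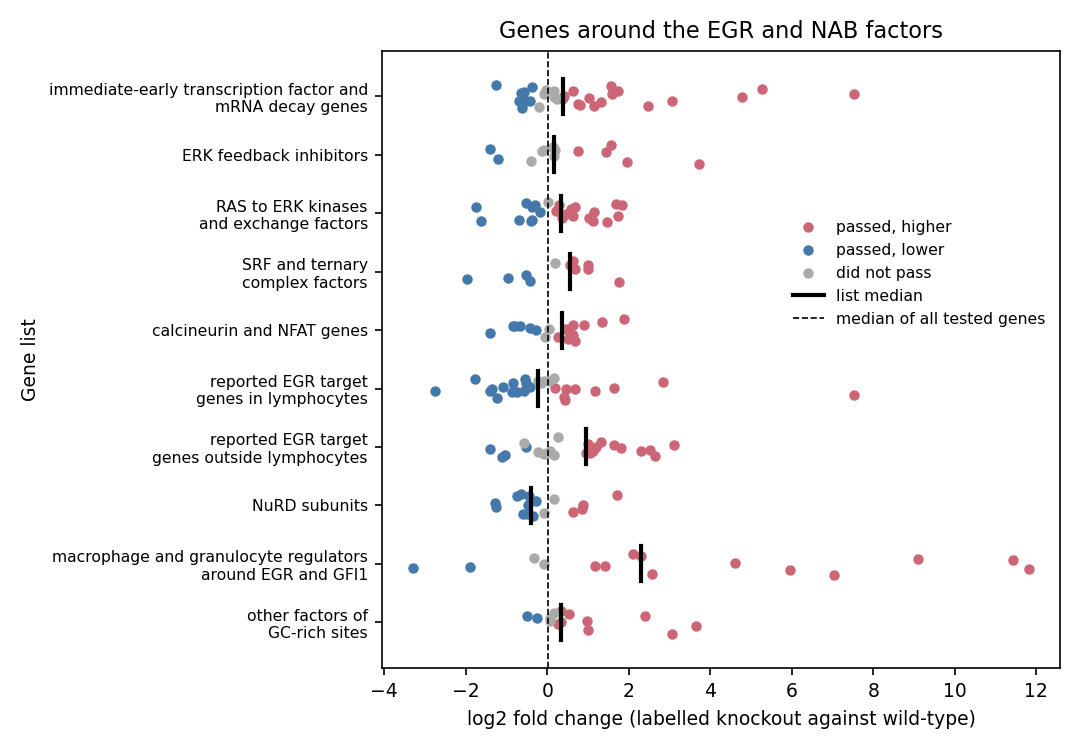
log2 fold change of libraries labelled knockout against wild-type (horizontal axis) for the tested genes of 10 lists (vertical axis), coloured by whether they passed the test; thick bars are list medians and the dashed line the median of all genes tested, 0.017. List medians run from -0.40 for NuRD subunits to 2.29 for the macrophage and granulocyte regulators.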

How the data were processed

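The authors deposited 1 table of raw counts per gene for the 4 libraries, without normalization. Per the submitters' processing notes, the tools were featureCounts 1.5.0-p3, HISAT2 2.0.5 and CASAVA 1.8; their settings, the strand and the build were not given in the sources used here. Although the label gives mouse as the organism, every one of the 58735 gene identifiers is a human Ensembl one, and the values were treated as human. Another deposited column, per the file headers, is the gene length in bases, used to compare levels between genes.

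Counts were fitted with edgeR 4.0.16 in R 4.3.3 (TMM scaling, filter of 10 counts and 15 in total, two-sided quasi-likelihood test between the groups, no covariate). Benjamini-Hochberg adjustment covered 15294 genes, at a threshold of 0.05. CPM values use the TMM-scaled library sizes. SE is that of the log2 fold change, derived as its absolute value divided by the square root of the quasi-likelihood F statistic. The fit was also tested on simulated data. The 2 libraries of a group differed by more than sampling noise (mean chi-square of 5.83 a gene in wild-type and 2.19 in knockout). Each library was counted as 1 replicate, as labelled; separate cultures are not named.

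The members and the 17 gene lists (279 symbols, all in the table) were chosen with earlier results of these data known. Beyond the members and MATR3, the text names up to 3 of the largest rises and falls of each of the 10 pathway lists. These had to pass the test, not overlap between groups and average at least 5 CPM. It also names the nearest tested neighbours, overlapping rows and the 3 genes most like each member. FOS, CHD4 and GFI1 are additional examples, and a few genes under this rule are left unreported. Some further genes are named only to show what a marker sum or a list count rests on.

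Alternatives were 3 other scalings, DESeq2 1.42.0, limma 3.58.1 voom, 2 other filters, protein-coding genes alone, a replicate block, each library left out, and levels without gene length.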

Additional observations from a re-analysis of the deposited data

How the results depend on the processing

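The EGR and NAB genes were chosen on this contrast, so the ranges of their log2 fold changes over the 13 alternatives are a description. They ran from 6.40 to 6.61 for EGR1, 1.87 to 2.38 for EGR4, 0.66 to 0.95 for NAB1 and 1.18 to 1.26 for NAB2. EGR2 ranged from 1.32 to 4.57 when each library was left out in turn, both extremes being those without a wild-type library, and EGR2 lost its call without wild-type replicate 1. In such fits the lone library of a group is assumed to vary like the others. With the replicate block, which uses a number that the libraries may share by name alone (correlation of replicate differences 0.029 over 10827 genes), EGR2 stood at 2.26 and the number of genes called across the table was 10072 against 10088. Counts of calls higher or lower in a list stayed within 1.5-fold except for the falls among the macrophage and granulocyte regulators and the GC-rich factors, which were 2 each. The former were 1 with DESeq2, without an expression filter and at 1 CPM in 2 libraries, and 1 to 2 when a library was left out; the latter were 1 to 2 when a library was left out. With each library left out in turn, ETF1 ranged from -0.015 to 0.15 and STAT6 from -0.12 to 0.050; both changed sign without wild-type replicate 1. Over the 90 single genes outside the EGR and NAB families, 15 of 1163 values lost a call and 4 gained one. Without gene length the EGR1 to NAB2 level ratio in knockout was 5.01 against 4.80. Low counts limit EGR2, EGR3 and EGR4, each with under 100 reads over a group. EGR3 could be fitted only without the filter (log2 fold change 1.38, SE 1.14).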

Other observations

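TNFRSF10D, a decoy receptor for the death ligand TRAIL and the third tested gene after EGR3, went from 0.0915 ± 0.0482 to 5.22 ± 0.244 CPM (SD, n = 2 each), a log2 fold change of 5.74 (SE 0.516). It was chosen after its values were seen. TNFRSF10B, a death receptor of the same cluster that lies between them, stood at 78.8 ± 3.52 and 73.5 ± 1.02 CPM and did not pass the test (log2 fold change -0.10, adjusted p = 0.277, edgeR).

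Among the T cell activation genes, IL2 had 0 reads in all 4 libraries and CD69 stood at 0.541 ± 0.0344 and 3.93 ± 0.159 CPM (log2 fold change 2.85). NR4A1, an orphan receptor induced by antigen receptor signalling, went from 8.82 ± 0.0516 to 17.8 ± 0.0995 CPM, and JUNB from 52.4 ± 5.37 to 158 ± 1.28 CPM. These 4 genes were chosen after their values were seen, while BATF, IL2RB and JUN fell, as given above. CD69 passed the expression filter only through the libraries labelled knockout, so it could be called in 1 direction alone.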
